A study of Mus musculus with 15 samples.

Results

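The small leucine-rich proteoglycans are secreted matrix proteins with a core of leucine-rich repeats, most of which carry chondroitin, dermatan or keratan sulphate chains. They bind fibrillar collagens and set the width and spacing of the fibrils, and several of them bind TGF-β or, when released, act on Toll-like receptors of innate immune cells. In the lung they are made mainly by fibroblasts and smooth muscle cells. The genes described here were chosen by name: Dcn, Bgn and Aspn of class I, Lum, Fmod, Prelp and Omd of class II, Ogn of class III and Podn of class V. All 9 were found among the 18078 genes of the deposited files. The study measured RNA in 15 libraries of primary lung fibroblasts of wild-type BALB/cJ mice after 20 h in culture. The 5 groups of 3 libraries were untreated cells and cells given IL-33, IL-33 + IL-17A, IL-33 + IL-13, or IL-33 + IL-13 + IL-17A, here called the triple combination. Of these, IL-33 belongs to the IL-1 family and is released by damaged cells, whereas IL-13 and IL-17A are lymphocyte cytokines of type 2 and type 3 immunity. No group received IL-13 or IL-17A without IL-33, and the labels name no animals or cultures. The spread behind each p-value is that between the deposited libraries and may be technical only.

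The deposited unit was TPM, a gene's share of its library after division by length. One read per kb of gene was worth 0.730 to 1.13 TPM, which put the depth at an estimated 10550000 to 15120000 reads per library. In 6 libraries the 13 mitochondrial protein-coding genes took 3.50% to 3.87% of the TPM, against 4.77% to 6.13% in the other 9. The 6 were all of IL-33 + IL-13, IL-33 + IL-17A replicates 2 and 3, and the first replicate of the triple combination. They are consecutive in accession order, and the labels name no batch. Several results of the members that moved with this split are given with and without it. Counts of the gene lists below are given without it, and some of them moved as well. The 12 fibroblast markers were all above 1 TPM on average, led by Col1a1 at 4658 TPM, and their sum went from 14806 to 16280 TPM in untreated cells to 9801 to 10311 TPM in the triple combination. All 14 macrophage markers were also above 1 TPM, led by Lyz2 at 9363 TPM, and their sum lay between 16849 and 19146 TPM in all libraries. It was 18690 to 18991 TPM in untreated cells, 17194 to 17426 with IL-33 + IL-13 and 16849 to 17521 in the triple combination. Against untreated cells, 3 of the 14 were called higher and 8 lower in the triple combination. Mrc1 averaged 51.4 TPM untreated and 154 in the triple combination, and Fcgr1 41.2 and 29.4 TPM. The summed smooth muscle and pericyte markers went from 921 to 968 TPM in untreated cells to 165 to 174 TPM in the triple combination. Among low marker sums, that of adventitial fibroblasts averaged 57.0 TPM in untreated cells, 29.2 with IL-33 and 27.0 with the triple combination. Its highest marker, Ly6a, averaged 46.9, 20.0 and 16.1 TPM in these groups. From untreated cells to the triple combination Col14a1 also fell, from 8.94 to 4.64 TPM. Cd34 rose from 0.373 to 2.32 TPM and Pi16 from 0.631 to 3.95 TPM. The mesothelial sum averaged 35.0 TPM untreated and 16.2 to 22.6 in the cytokine groups, and the chondrocyte and tendon sum 26.9 and 12.3 to 19.2. The sum of alveolar fibroblast markers (3 of 5 in the files) averaged 19.3 TPM untreated, 10.01 with IL-33 + IL-17A, the lowest group, and 20.0 with IL-33 + IL-13, the highest. Its markers went apart in IL-33 + IL-13. Npnt averaged 19.1 TPM there against 11.2 untreated, while Itga8 averaged 0.352 against 3.99 and Limch1 0.542 against 4.13. The endothelial and epithelial sums were at most 7.93 and 3.49 TPM in any library. The part of cell composition in the results was not tested, and in bulk RNA fewer cells of a type and less RNA per cell cannot be told apart. A difference was called at an adjusted p under 0.05 (limma on log2(TPM + 1), Benjamini-Hochberg over 13887 tested genes). Log2 changes are given with their SE.

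Bgn was the most abundant member and Omd the least. The authors' TPM divides by the whole gene span with introns, so levels of different genes were compared on TPM recomputed with exon length. On that scale Bgn averaged 1769 TPM, Dcn 539, Prelp 87.5, Ogn 36.7, Podn 19.8, Aspn 19.2, Fmod 10.2, Lum 8.65 and Omd 0.710. The order of Podn and Aspn was not distinct, since their untreated levels were 48.5 ± 1.12 and 52.8 ± 7.28 (SD, n = 3). Exons cover only 5.23% of the span of Podn, which was the eighth of the 9 by deposited TPM and the fifth by exon length. In untreated cells Bgn made up 76.9% of the summed family on the exon scale and Dcn 10.1%. In the triple combination these shares were 64.6% and 30.0%. The sum itself was 2725 ± 31.4 in untreated cells, 2726 ± 16.7 with IL-33, 2470 ± 226 with IL-33 + IL-17A, 2178 ± 57.5 with IL-33 + IL-13 and 2356 ± 78.5 with the triple combination (SD, n = 3).

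**Figure D1:**
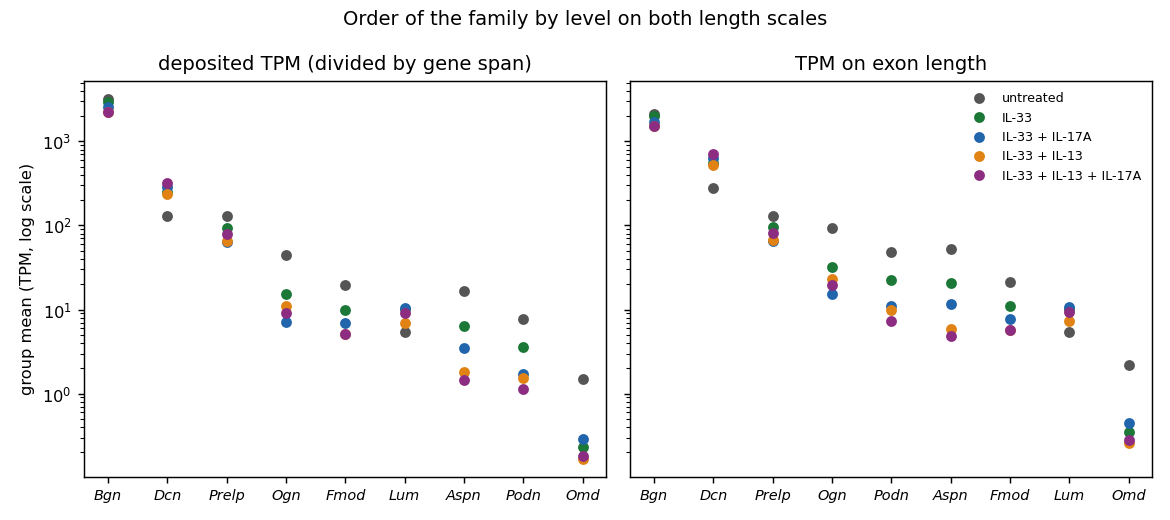
Group means of the 9 genes on a log axis, as deposited TPM (left) and as TPM on exon length (right), with 1 point per group and the genes ordered by their mean over all libraries. Bgn and Dcn lead on both scales, and Podn moves from the eighth to the fifth place on exon length.

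Against untreated cells, IL-33 left Dcn and Lum higher and 5 members lower of the 8 that could be tested, and 14.2% of all tested genes were called in that comparison. With IL-33 + IL-17A, 2 members were higher and 6 lower (37.7% of all genes called), with IL-33 + IL-13, 1 was higher and 6 lower (49.6%), and with the triple combination, 2 were higher and 6 lower (42.7%). The median log2 change of the 8 members was -0.69, -1.20, -1.38 and -1.24 in these comparisons, beside -0.05, -0.09, -0.12 and -0.10 for all tested genes. Scaling the libraries by median ratios put the median of all genes at -0.00031 to 0.013. These 4 comparisons share the same 3 untreated libraries. None of those has the low mitochondrial share, while all 3 libraries of IL-33 + IL-13 do. IL-33 + IL-13 therefore could not be compared with untreated cells within the split. Changes of 1 or more on the log2 scale, in either direction, were found in 2.46%, 4.74%, 5.24% and 6.42% of all tested genes. Calls among all tested genes leaned downward as well. They were 822 higher and 1150 lower with IL-33, and 1486 and 3743 with IL-33 + IL-17A. With IL-33 + IL-13 they were 2017 and 4870, and with the triple combination 1755 and 4178.

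**Figure D2:**
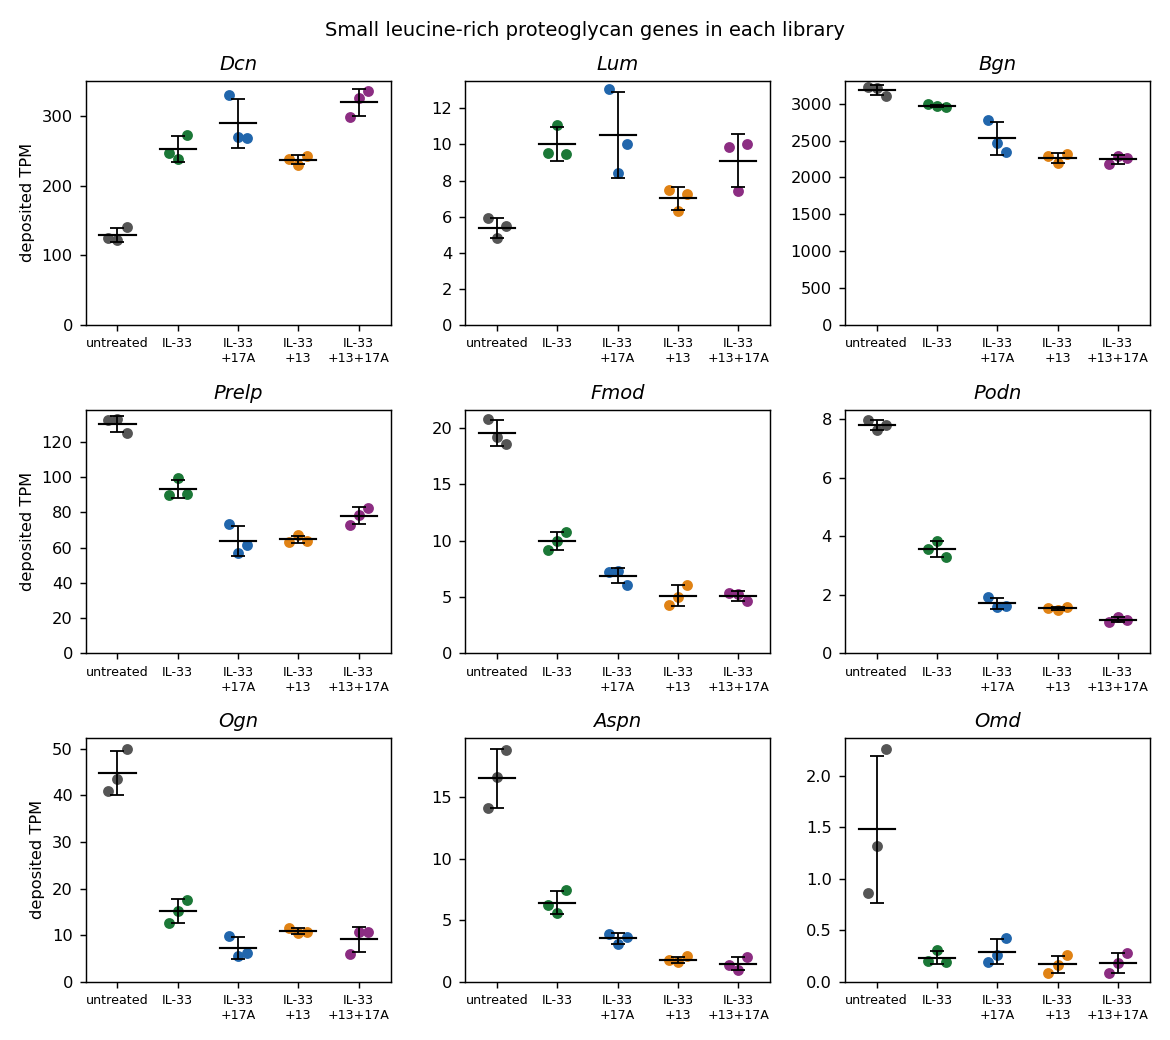
Deposited TPM of the 9 genes in every library (points), with group means (lines) and SD (bars, n = 3) and each vertical axis starting at 0. Dcn and Lum are higher in all cytokine groups than in untreated cells, and the other 7 are lower.

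Dcn encodes decorin, which binds collagen fibrils and TGF-β, and it lies on chromosome 10 (97479609 to 97518143, mm10, plus strand, ENSMUSG00000019929). It stood at 124, 121 and 140.1 TPM in the untreated libraries and at 247, 238 and 272 TPM with IL-33. With IL-33 + IL-17A the libraries were at 329.5, 269.6 and 269 TPM, with IL-33 + IL-13 at 238, 229.9 and 243 TPM, and with the triple combination at 298, 325 and 336 TPM. All 12 cytokine libraries were thus above the 3 untreated ones. The log2 change was 0.97 ± 0.08 with IL-33 (limma adjusted p = 5.6e-06), 1.16 ± 0.08 with IL-33 + IL-17A (3.6e-07), 0.88 ± 0.08 with IL-33 + IL-13 (4.5e-06) and 1.31 ± 0.08 with the triple combination (7.7e-08). In the same libraries the summed fibroblast markers stood at 86.9%, 77.7%, 73.6% and 63.7% of their untreated mean, while Dcn stood at 196%, 225%, 184% and 249%. Col1a1 alone averaged 6107 TPM of that sum in untreated cells and 3189 TPM in the triple combination. Against untreated cells, 11 of the 12 markers were called lower there and 1, Postn, higher. Whether the sum follows the number of fibroblasts was not tested. The estimate of reads behind Dcn was 4120 to 14176 per library.

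Bgn, the gene of biglycan, a close relative of decorin with more than a single chain and a ligand of TLR2 and TLR4, lies on the X chromosome (73483602 to 73495933, plus strand). It was at 3232, 3219.7 and 3108 TPM without cytokine and at 2991, 2965 and 2961 TPM with IL-33. It was at 2781, 2464 and 2345 TPM with IL-33 + IL-17A, 2287, 2191 and 2315 with IL-33 + IL-13, and 2178, 2291 and 2270.2 with the triple combination. The untreated libraries lay above all others, yet the difference to IL-33 alone was -0.10 ± 0.05 and was not called (limma adjusted p = 0.24, and 0.024 when fitted on the 9 libraries with the higher mitochondrial share). The other 3 conditions were lower than untreated cells, with log2 changes of -0.34 ± 0.05, -0.49 ± 0.05 and -0.50 ± 0.05 (limma adjusted p = 0.00024, 8.1e-06 and 5.0e-06). Bgn thus stood at 79.4%, 71.1% and 70.5% of its untreated mean, against 77.7%, 73.6% and 63.7% for the summed fibroblast markers, led by Col1a1. The sequence before its RefSeq start (GRCm38.p6, chrX:73483351-73483600, plus strand) is shown because it alone among the 7 members with a RefSeq window held the letters TTCNNNNGAA, a motif of STAT6, the factor activated by IL-13. The match is in capitals, 149 to 140 bases before the start.
Bgn: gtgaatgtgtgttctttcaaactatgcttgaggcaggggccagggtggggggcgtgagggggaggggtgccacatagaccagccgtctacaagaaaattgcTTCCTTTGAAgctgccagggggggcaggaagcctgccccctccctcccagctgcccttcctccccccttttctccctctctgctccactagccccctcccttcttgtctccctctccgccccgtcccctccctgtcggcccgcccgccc
These letters, read on both strands, were present in 5.85% of 32851 windows of 250 bases before RefSeq starts. A match is a description of the sequence and not a measured site.

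Aspn, the gene of asporin, a class I protein with an aspartate-rich stretch that binds collagen and TGF-β, fell most among the tested members in the groups with IL-13. It was at 14.1, 16.6 and 18.9 TPM in untreated cells and at 6.23, 5.59 and 7.43 TPM with IL-33. It was at 3.91, 3.07 and 3.63 TPM with IL-33 + IL-17A, at 1.75, 1.59 and 2.06 TPM with IL-33 + IL-13 and at 1.38, 0.989 and 2.03 TPM with the triple combination. Each group from untreated to IL-33 + IL-13 was separate from the next, and only the last pair overlapped. The log2 changes against untreated were -1.24 ± 0.15, -1.95 ± 0.15, -2.64 ± 0.15 and -2.84 ± 0.15 (limma adjusted p = 0.00012, 8.0e-07, 4.5e-08 and 1.4e-08). In terms of means, Aspn in the triple combination stood at 8.87% of its untreated level. The lowest library held an estimated 24.0 reads of Aspn and the highest 411.

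Aspn shares a stretch of chromosome 13 with Omd and Ogn, all on the plus strand. Aspn spans 49544443 to 49567565, Omd 49582462 to 49592822 and Ogn 49608046 to 49624501 (mm10), with 14.9 kb and 15.2 kb between them and no other gene of the files starting and ending in these gaps. All 3 lie inside the span of Cenpp, a centromere protein gene, which averaged 0.152 TPM. Ogn encodes osteoglycin, also called mimecan, and Omd encodes osteomodulin, a keratan sulphate proteoglycan known from bone. Ogn was at 40.9, 43.4 and 50.1 TPM in untreated cells and at 12.6, 15.2 and 17.6 TPM with IL-33. It was at 9.87, 5.55 and 6.12 TPM with IL-33 + IL-17A, 11.5, 10.4 and 10.7 with IL-33 + IL-13, and 5.99, 10.7 and 10.7 with the triple combination. The untreated libraries did not overlap any other group. The log2 changes against untreated were -1.51 ± 0.22, -2.52 ± 0.22, -1.94 ± 0.22 and -2.21 ± 0.22 (limma adjusted p = 0.00043, 2.0e-06, 1.8e-05 and 4.5e-06). Ogn therefore fell furthest with IL-33 + IL-17A, where it stood at 16.0% of its untreated mean, but the difference between that group and IL-33 + IL-13 was not called (0.57 ± 0.22, adjusted p = 0.098). It was called when replicate 1 of IL-33 + IL-17A was left out (0.80, adjusted p = 0.023), and so was it with a term for the low mitochondrial share (0.81, adjusted p = 0.00042).

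Omd reached 1 TPM in only 2 libraries, both untreated, and did not pass the filter of 1 TPM in at least 3 libraries. It was at 0.863, 1.31 and 2.26 TPM in untreated cells, and the 12 cytokine libraries lay between 0.0830 and 0.423 TPM. The estimate of reads was 1 to 22 per library. With no filter on low values, its log2 change against untreated was -0.97 ± 0.16, -0.91 ± 0.16, -1.05 ± 0.16 and -1.03 ± 0.16 (limma adjusted p = 0.0015, 0.0011, 0.00028 and 0.00030). The added 1 TPM shrinks these changes, since the group means of Omd stood at 15.7%, 19.6%, 11.4% and 12.4% of its untreated mean. The windows before the RefSeq starts of the 3 neighbours are shown because these genes lie side by side and were all highest in untreated cells. Capitals mark the letters TATAAA on either strand and, in Ogn, GGAATG, a motif of TEAD factors.
Aspn: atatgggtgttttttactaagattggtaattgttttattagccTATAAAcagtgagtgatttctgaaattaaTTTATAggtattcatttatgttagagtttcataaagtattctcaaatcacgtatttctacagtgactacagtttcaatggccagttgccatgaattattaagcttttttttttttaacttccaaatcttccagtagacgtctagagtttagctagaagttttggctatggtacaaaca
Omd: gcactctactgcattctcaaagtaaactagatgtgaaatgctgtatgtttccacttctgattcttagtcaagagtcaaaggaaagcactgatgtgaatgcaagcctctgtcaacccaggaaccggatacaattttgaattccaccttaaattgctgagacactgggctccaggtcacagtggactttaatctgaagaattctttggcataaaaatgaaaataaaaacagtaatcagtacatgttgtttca
Ogn: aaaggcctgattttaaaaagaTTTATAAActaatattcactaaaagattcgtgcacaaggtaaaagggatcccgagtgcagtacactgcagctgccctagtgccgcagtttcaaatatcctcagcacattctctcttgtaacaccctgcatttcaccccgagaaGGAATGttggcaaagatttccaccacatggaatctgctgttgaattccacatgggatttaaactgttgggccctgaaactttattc
The windows are chr13:49544193-49544442, chr13:49582212-49582461 and chr13:49607765-49608014 (GRCm38.p6, plus strand). TATAAA was found 207 to 202 bases before the start of Aspn and 227 to 222 before that of Ogn, each with a second match on the other strand, and 12.4% of the windows hold it. GGAATG lay 86 to 81 bases before the start of Ogn and is in 12.6% of the windows. The letters TGANTCA, a motif of AP-1, were in none of the 7 members' windows and in 6.75% of all windows. An NF-kB motif, also searched on both strands, was in none of the 7 and in 3.9% of all windows. Dcn and Lum had no entry.

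Lum encodes lumican, a keratan sulphate proteoglycan of collagen-rich tissue, and lies 47.0 kb from Dcn on the same strand of chromosome 10 (97565128 to 97572703) with no gene of the files between them. It was at 5.90, 4.79 and 5.47 TPM in untreated cells, at 9.50, 11.1 and 9.47 TPM with IL-33 and at 13.1, 8.42 and 10.02 TPM with IL-33 + IL-17A. It was at 7.49, 6.30 and 7.23 TPM with IL-33 + IL-13 and at 9.88, 7.42 and 10.002 TPM with the triple combination. Every cytokine library was above the untreated ones, and IL-33 and IL-33 + IL-13 did not overlap. Lum rose by a log2 change of 0.79 ± 0.14 with IL-33, 0.83 ± 0.14 with IL-33 + IL-17A and 0.65 ± 0.14 with the triple combination (limma adjusted p = 0.0024, 0.00070 and 0.0028). With IL-33 + IL-13 the change was 0.33 ± 0.14 and was not called (adjusted p = 0.077). It was called with median-ratio scaling (0.46, adjusted p = 0.017) and on estimated reads (0.51, adjusted p = 0.034). Only 32.0 to 104 reads per library lay behind these values.

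Fmod and Prelp, also of class II, lie 116 kb apart on chromosome 1 on opposite strands, Fmod at 134037254 to 134048277 and Prelp at 133910304 to 133921414. Fmod encodes fibromodulin, which binds type I collagen. It was at 20.8, 19.2 and 18.6 TPM in untreated cells, at 9.14, 10.0005 and 10.7 TPM with IL-33 and at 7.24, 7.32 and 6.09 TPM with IL-33 + IL-17A. It was at 4.29, 4.95 and 6.09 TPM with IL-33 + IL-13 and at 5.38, 5.28 and 4.61 TPM with the triple combination. The 2 groups with IL-13 overlapped and held the lowest libraries. The log2 changes against untreated were -0.91 ± 0.10, -1.38 ± 0.10, -1.76 ± 0.10 and -1.76 ± 0.10 (limma adjusted p = 6.5e-05, 5.3e-07, 5.6e-08 and 3.6e-08). Fmod was thus at 50.9%, 35.2%, 26.2% and 26.0% of its untreated mean.

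Prelp encodes a basic protein, also called prolargin, that links basement membranes to collagen. It was at 132, 133 and 125 TPM in untreated cells, at 90.1, 99.3 and 90.6 TPM with IL-33 and at 73.4, 57.2 and 61.2 TPM with IL-33 + IL-17A. It was at 63.2, 67.0 and 64.0 TPM with IL-33 + IL-13 and at 73.0, 78.8 and 82.8 TPM with the triple combination. In the other 5 tested members that fell, the triple combination had the lowest or next to lowest mean, and for Prelp it had the third lowest. The log2 changes against untreated were -0.48 ± 0.08, -1.02 ± 0.08, -0.996 ± 0.079 and -0.73 ± 0.08 (limma adjusted p = 0.0013, 7.1e-07, 8.4e-07 and 1.1e-05).

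Podn encodes podocan, a class V member, on the minus strand of chromosome 4 (108014791 to 108096445). It was at 7.98, 7.62 and 7.81 TPM in untreated cells, at 3.55, 3.82 and 3.29 TPM with IL-33 and at 1.93, 1.60 and 1.61 TPM with IL-33 + IL-17A. It was at 1.54, 1.49 and 1.59 TPM with IL-33 + IL-13 and at 1.07, 1.23 and 1.15 TPM with the triple combination. No pair of groups overlapped, although the lowest library of IL-33 + IL-17A and the highest of IL-33 + IL-13 were at 1.60 and 1.59 TPM. The log2 changes against untreated were -0.95 ± 0.07, -1.70 ± 0.07, -1.79 ± 0.07 and -2.03 ± 0.07 (limma adjusted p = 7.2e-07, 1.1e-09, 6.3e-10 and 1.1e-10). On estimated reads the last of these was -2.63, since the added 1 TPM shrinks changes of low values. Podn overlaps 52.6 kb of Scp2, a sterol carrier gene, so reads of the shared stretch could be counted for either. Scp2 went from 25.5 ± 0.46 TPM to 18.1 ± 0.28 TPM (SD, n = 3) in the triple combination.

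**Figure D3:**
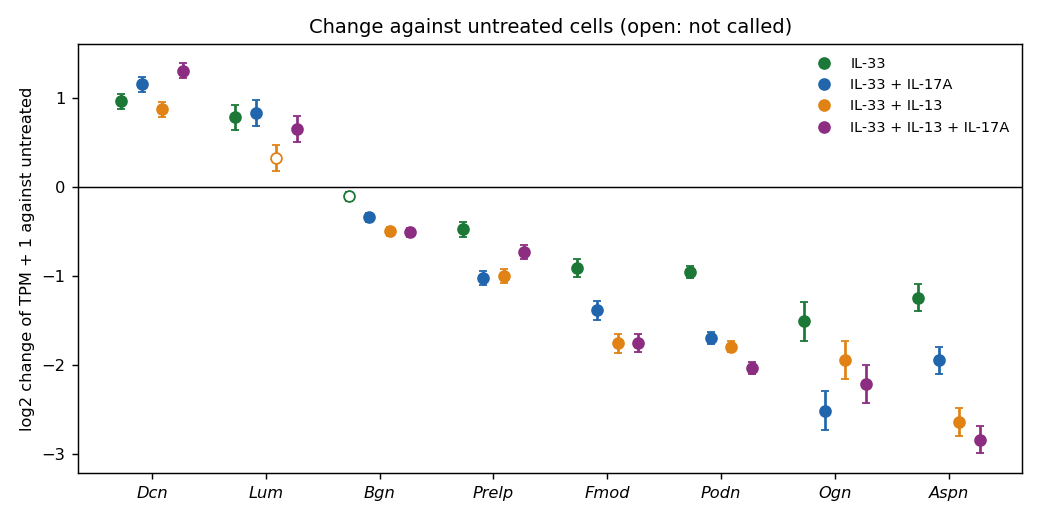
Log2 change of TPM + 1 of the 8 tested genes against untreated cells in the 4 cytokine conditions (points) with SE (bars), open where the adjusted p was 0.05 or more. Dcn and Lum lie above 0 and the other 6 below it, with Aspn lowest in the 2 groups with IL-13.

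Adding IL-17A to IL-33 lowered 6 of the 8 members and raised none, where 9.76% of all tested genes were called (864 lower, 491 higher). Podn changed by -0.75 ± 0.07 (limma adjusted p = 1.5e-05), Prelp by -0.55 ± 0.08 (0.00080), Ogn by -1.01 ± 0.22 (0.011), Aspn by -0.71 ± 0.15 (0.011), Fmod by -0.48 ± 0.10 (0.012) and Bgn by -0.24 ± 0.05 (0.011). Dcn was at 0.19 ± 0.08 and was not called (adjusted p = 0.18), but it was with median-ratio scaling (0.26, adjusted p = 0.023). Lum was at 0.05 ± 0.14. Replicates 2 and 3 of IL-33 + IL-17A belong to the 6 libraries with a low mitochondrial share. With a term for that split, 3 members were lower (Podn, Prelp and Ogn) and Dcn was higher. The share of all tested genes called with the term is not reported here. Outside the low share IL-33 + IL-17A has 1 library, which is assumed to vary like the other groups. Calls lost in a fit on those libraries show little about the split. Leaving out IL-33 replicate 3 ended the calls of Ogn, Aspn and Fmod (adjusted p = 0.052, 0.054 and 0.054), leaving out IL-33 + IL-17A replicate 2 those of Ogn and Aspn (both 0.0575), and leaving out its replicate 3 those of Ogn and Fmod (0.055 and 0.062).

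Adding IL-13 to IL-33 also lowered 6 members, with 32.4% of all tested genes called (3111 lower, 1395 higher). Aspn changed by -1.40 ± 0.15 (limma adjusted p = 4.4e-05), Fmod by -0.85 ± 0.10 (0.00011), Podn by -0.84 ± 0.07 (2.8e-06), Prelp by -0.52 ± 0.08 (0.00054), Lum by -0.46 ± 0.14 (0.029) and Bgn by -0.39 ± 0.05 (0.00016). Dcn (-0.09 ± 0.08) and Ogn (-0.43 ± 0.22) were not called. Lum lost its call when IL-33 replicate 2 or 3 or IL-33 + IL-13 replicate 2 or 3 was left out (adjusted p = 0.097, 0.054, 0.10 and 0.056) and with median-ratio scaling (0.056). All 3 IL-33 + IL-13 libraries have the low mitochondrial share and all IL-33 libraries do not, so no comparison within the split was possible. A fit with a term for it, which takes the split's size from the other groups, called 5 members lower, without Lum (-0.31, adjusted p = 0.42). The share of all tested genes called in that fit is not reported here.

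The partner cytokines were then compared directly. Between IL-33 + IL-13 and IL-33 + IL-17A, 4 members were lower with IL-13 and none higher (16.8% of all genes called). The log2 changes were -0.70 ± 0.15 for Aspn, -0.51 ± 0.14 for Lum, -0.37 ± 0.10 for Fmod and -0.28 ± 0.08 for Dcn (limma adjusted p = 0.0078, 0.031, 0.029 and 0.039). The call of Aspn was kept without any 1 of the 6 libraries. Dcn lost its call without IL-33 + IL-17A replicate 1 or any 1 library of IL-33 + IL-13 (adjusted p = 0.072 to 0.13). Lum lost it without IL-33 + IL-17A replicate 1 or 3 or any 1 library of IL-33 + IL-13 (0.054 to 0.11), and Fmod without replicate 1 or 2 of either group (0.087 to 0.12). Fitted on the compared groups alone, Aspn was the sole member called. Ogn was higher with IL-13 but not called in the main fit (0.57 ± 0.22, adjusted p = 0.098). On estimated reads it was called higher (0.69, limma adjusted p = 0.035) and Bgn lower (-0.13, adjusted p = 0.019). With the term for the low mitochondrial share Ogn was also called higher, as given above.

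Adding IL-17A to IL-33 + IL-13 changed fewer members, 1 higher and 1 lower, with 7.45% of all tested genes called. Dcn rose by 0.43 ± 0.08 (limma adjusted p = 0.0089), and no library of the triple combination overlapped IL-33 + IL-13. With the term for the mitochondrial split this was 0.28 (adjusted p = 0.065). Podn was at -0.24 ± 0.07 (adjusted p = 0.047), a call that was lost when any 1 of the 6 libraries was left out (adjusted p = 0.073 to 0.13). Prelp was at 0.27 ± 0.08 (adjusted p = 0.064) and was called without replicate 1 of the triple combination (0.32, adjusted p = 0.035). That library is the only one of its group with the low mitochondrial share.

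Adding IL-13 to IL-33 + IL-17A raised Prelp and lowered Aspn, Podn, Fmod and Bgn, with log2 changes of 0.29 ± 0.08, -0.90 ± 0.15, -0.33 ± 0.07, -0.37 ± 0.10 and -0.17 ± 0.05 (limma adjusted p = 0.026, 0.0018, 0.0047, 0.030 and 0.040), with 15.8% of all tested genes called. The call of Prelp was lost without replicate 2 or 3 of either group (adjusted p = 0.078 to 0.10). That of Fmod was lost without IL-33 + IL-17A replicate 1 or 2 or triple replicate 2 or 3 (0.063 to 0.12), and that of Bgn without IL-33 + IL-17A replicate 1 or 2 or any 1 triple library (0.060 to 0.10). With the compared groups fitted alone, Aspn was the sole member called. In the libraries outside the low mitochondrial share Bgn alone was called, but there IL-33 + IL-17A has 1 library, whose spread is taken from the other groups. Against IL-33 alone, the triple combination had Dcn higher (0.34 ± 0.08, adjusted p = 0.011) and 6 members lower, with 24.7% of all tested genes called. The lower members were Aspn (-1.60 ± 0.15), Podn (-1.08 ± 0.07), Fmod (-0.85 ± 0.10), Ogn (-0.70 ± 0.22), Bgn (-0.40 ± 0.05) and Prelp (-0.25 ± 0.08). Ogn lost its call without IL-33 replicate 2 or 3 or triple replicate 1 (adjusted p = 0.083 to 0.12). Prelp lost it without any 1 IL-33 library or triple replicate 1 or 2 (0.051 to 0.13).

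**Figure D4:**
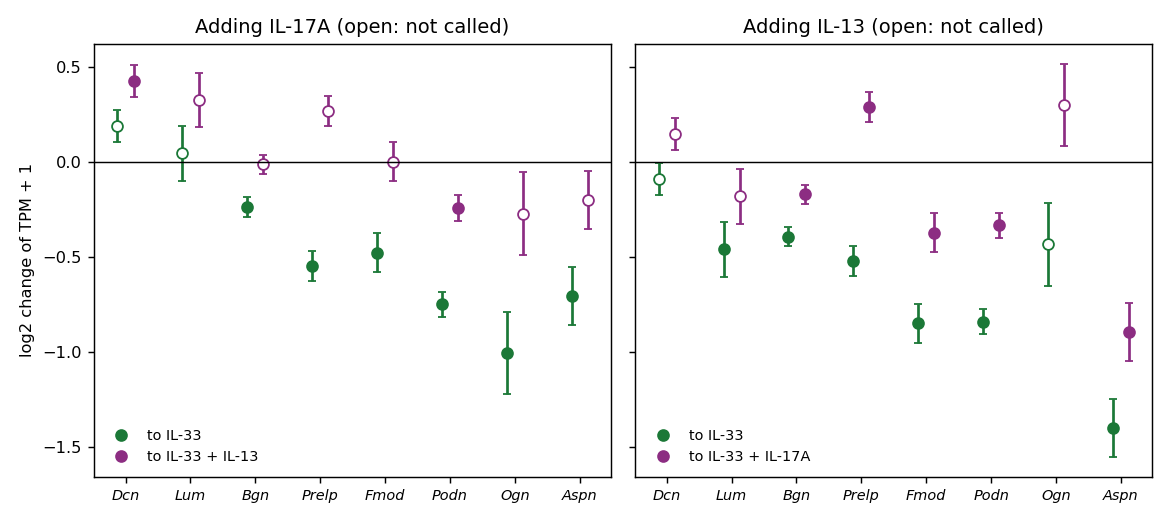
Log2 change of TPM + 1 (points) with SE (bars) when IL-17A (left) or IL-13 (right) was added to IL-33 or to the other pair, open where the adjusted p was 0.05 or more. Prelp goes down with either cytokine on top of IL-33 and lies above 0 when either is added to the other pair.

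The interaction of the partner cytokines under IL-33, the difference between the effect of IL-17A with and without IL-13, was called for Prelp (0.81 ± 0.11, limma adjusted p = 0.0094) and Podn (0.51 ± 0.09, adjusted p = 0.047). In all, 0.338% of the tested genes were called. For Prelp the step with IL-17A was -0.55 on IL-33 and 0.27 on IL-33 + IL-13, and for Podn it was -0.75 and -0.24. For the other 6 the estimate was positive, from 0.22 for Bgn to 0.74 for Ogn, and not called. With a term for the low mitochondrial share neither was called (Prelp 0.51, adjusted p = 0.38, and Podn 0.34, adjusted p = 0.79). The call of Prelp was kept without any 1 of the 12 libraries, and that of Podn was lost without 10 of them. Leaving out IL-33 + IL-17A replicate 1, the sole library of its group with the higher share, raised the count to 6 members, and leaving out triple replicate 1 raised it to 4. How many of all tested genes were called in those fits is not reported here. A rise in the members therefore cannot be told apart from a general rise in calls.

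Over the 15 libraries, the 6 falling members with a test went together in log2(TPM + 1), with Pearson's r of 0.79 to 0.97 in their 15 pairs. Dcn ran against them (r = -0.88 to -0.67) and with Lum (r = 0.80). Lum was less related to the 6 (r = -0.66 to -0.23). These correlations describe libraries that share groups and scaling. Among the non-members, the gene most like Dcn was Mt2, a metallothionein gene (r = 0.99), followed by Itgam, which is also in the macrophage marker list. Clec12a was nearest to both Aspn (r = 0.99) and Fmod (r = 0.98), 2310022B05Rik to Podn (r = 0.996), Ahcyl1 to Ogn (r = 0.99), Cd109 to Bgn (r = 0.99), Nptn to Prelp (r = 0.97) and Srgap3 to Lum (r = 0.93).

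Of 10 other genes of the family listed, 9 were in the files and 2 could be tested. Podnl1, the closest relative of Podn, went from 10.3 ± 0.12 TPM in untreated cells to 7.24 ± 0.96 with IL-33 and 3.27 ± 0.22 with the triple combination (SD, n = 3), a log2 change of -0.46 ± 0.09 and -1.40 ± 0.09 (limma adjusted p = 0.0036 and 6.8e-08). Tsku, the gene of tsukushi, rose from 56.3 ± 2.82 to 73.3 ± 2.56 TPM with IL-33 (0.38 ± 0.05, adjusted p = 0.00027). Of 13 tested collagen partners, 8 were lower and 1 higher with IL-33, where 14.2% of all tested genes were called (1150 lower, 822 higher). With the triple combination 12 were lower and 1 higher, where 42.7% of all tested genes were called (4178 lower, 1755 higher). Col6a3, a chain of collagen VI, led them with 140.2 ± 4.07 TPM untreated, 76.9 ± 3.53 with IL-33 and 22.4 ± 0.60 with the triple combination. Median-ratio scaling gave 6 and 11 lower and 1 higher in each. The share of all tested genes called with that scaling in these comparisons is not reported here.

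The enzymes that process or cleave these proteins included genes that rose far more than any member. Of 13 tested, 6 were higher and 4 lower with IL-33 (14.2% of all tested genes called), and 6 and 5 with the triple combination (42.7%). Among those going down, Adamts5 averaged 46.6 TPM in untreated cells and 19.2 with the triple combination, and Ctsk 101 and 56.6 TPM. Mmp9 went from 1.75 ± 0.15 TPM in untreated cells to 35.5 ± 0.73 with IL-33 and 86.6 ± 1.67 with the triple combination. Mmp3, which cleaves decorin, went from 69.3 ± 5.87 to 607 ± 50.8 and 979 ± 33.8 TPM, and Mmp13 from 61.6 ± 3.81 to 281 ± 16.0 and 756 ± 76.3 TPM (SD, n = 3). Their log2 changes with IL-33 were 3.73 ± 0.05, 3.11 ± 0.07 and 2.17 ± 0.08 (limma adjusted p = 9.0e-14, 6.7e-12 and 1.6e-09).

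Among 16 tested receptors and growth factors that bind these proteins, 3 were higher and 5 lower with IL-33 (14.2% of all tested genes called), and 3 higher and 11 lower with the triple combination (42.7%). Median-ratio scaling gave 5 and 4 with IL-33, and 5 and 10 with the triple combination. Tgfb3 fell from 184 ± 3.91 TPM to 99.7 ± 4.36 with IL-33 and 36.1 ± 0.76 with the triple combination, and Tgfb2 from 9.38 ± 0.97 to 3.78 ± 0.21 and 1.51 ± 0.22 TPM. Tlr2, a receptor for released biglycan, rose from 165 ± 5.84 to 297 ± 18.4 TPM with IL-33 (0.84 ± 0.07, limma adjusted p = 3.7e-06) and stood at 123 ± 3.34 TPM with IL-33 + IL-13. Tlr2 and Cd14 are also macrophage genes, and Cd14 averaged 1945 TPM. Of 22 tested enzymes that build glycosaminoglycan chains, 3 were higher and 3 lower with IL-33 (14.2% of all tested genes called), and 3 and 7 with the triple combination, a share near the 42.7% called among all tested genes. Median-ratio scaling gave 5 higher and 6 lower there. Chst11, a chondroitin sulphotransferase gene, was among the higher ones (0.45 ± 0.04 with IL-33, adjusted p = 1.2e-05), and Chst13, of the same kind, among the lower (-0.97 ± 0.17, adjusted p = 0.0015). Of 16 other proteoglycan genes tested, 6 were higher and 4 lower with IL-33, and 6 and 4 with the triple combination, beside 14.2% and 42.7% of all tested genes called. In the triple combination Srgn, the gene of serglycin, a proteoglycan of immune cell granules, rose by 1.41 ± 0.10 and Sdc2, a syndecan gene, fell by 0.95 (SE 0.08).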

How the data were processed

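RNA of 15 libraries, 3 per group, was isolated with an RNeasy kit and sequenced on a NovaSeq instrument per the labels' protocols, and aligned with HISAT2 to mm10 per the submitters' processing notes. Which tool quantified the genes, and with what strand setting, is not given in the sources used here. The authors deposited TPM for 18078 Ensembl genes per the file headers. The length behind it was read from the values: TPM times gene span gave whole multiples of 1 step, within 0.03, for 89.3% to 90.6% of values of at most 20 reads, against 21.6% to 23.1% with exon length. Reads per gene were estimated from that step. TPM is a share of a fixed total, so strong rises lower all other values.

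Replicates were numbered in accession order and were not paired in the fits, and the labels do not say whether cultures were shared between groups. The test kept the 13887 genes that reached 1 TPM in 3 or more libraries and left out 4191. limma 3.58.1 (R 4.3.3, trend and robust) was fitted to log2(TPM + 1) with a mean per group over all 15 libraries, after a check on simulated data, and p-values were adjusted by Benjamini-Hochberg over all tested genes. Python 3.11.15 with pandas 2.3.3 did the rest. Exon lengths came from GENCODE vM21 and sequences from RefSeq (GRCm38.p6), where 7 of the 9 genes matched. The members and lists were chosen with earlier results of these data known. All members are named, and of each list up to 4 called genes with the largest change in a comparison. The 3 genes most like a member are those with the highest Pearson's r over the libraries, and not all of them are reported here. Alternatives were another pseudocount, no filter, median-ratio scaling, the compared groups alone, limma without its options, each library left out, and the split by mitochondrial share at 4.5%. TPM on exon length and voom on estimated reads were chosen after seeing the data.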

Additional observations from a re-analysis of the deposited data

Results flagged for a closer look

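By the test of the difference itself, the effect of IL-17A with and without IL-13 was called different for Prelp and Podn. The interaction was 0.81 for Prelp (SE 0.11, limma adjusted p = 0.0094) and 0.51 for Podn (SE 0.09, limma adjusted p = 0.047). The call of Podn was lost in 10 of the 12 fits that leave out 1 library, and that of Prelp in none of them. For Prelp the 3 triple libraries (73.0, 78.8 and 82.8 TPM) were all above the 3 libraries of IL-33 + IL-13 (63.2, 67.0 and 64.0 TPM), while the 3 libraries of IL-33 + IL-17A (73.4, 57.2 and 61.2 TPM) were all below those of IL-33 (90.1, 99.3 and 90.6 TPM). Both calls were lost with a term for the low mitochondrial share (adjusted p = 0.38 and 0.79), and the split and the groups cannot be fully told apart, since all 3 IL-33 + IL-13 libraries have the low share and no IL-33 library does.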

How the results depend on the processing

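Over 88 member changes and their alternatives, 1328 values were recomputed. Of these, 1184 kept direction and side of the threshold, 99 lost and 28 gained a call, and 17 turned direction. Against untreated cells, 467 of 472 kept both, 5 gained a call and none was lost or turned. Calls between cytokine groups depended more on single libraries. The number of members called was 3 to 6 with each library left out in turn when IL-17A was added to IL-33 (6 with all), 1 to 2 when it was added to IL-33 + IL-13 (2), 2 to 4 when IL-13 was added to IL-33 + IL-17A (5), 1 to 4 for IL-33 + IL-13 against IL-33 + IL-17A (4) and 1 to 6 for the interaction (2). Fitting the compared groups alone gave 3, 1, 1, 1 and 1, with fewer libraries for the spread. The libraries outside the low mitochondrial share gave 1 when IL-17A was added to IL-33 and 1 when IL-13 was added to IL-33 + IL-17A. Both rest on 1 library of IL-33 + IL-17A, assumed to vary like the other groups, so the drop shows little about the split. These libraries hold none of IL-33 + IL-13, so comparisons with that group could not be fitted there. Apart from the interaction settings below, the numbers of all tested genes called in these fits are not reported here. A loss of member calls therefore cannot be told apart from a general loss of calls. For the interaction, a pseudocount of 0.1 gave 1 and the term for that share 0. All genes called for the interaction were 47, with 42 at the pseudocount of 0.1 and 39 in the compared groups alone. They were 97 with median-ratio scaling, 312 on exon length, 1440 with voom and 2 with the term, and the cause was not tested.

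The changes that turned direction were all uncalled. Adding IL-13 to IL-33 gave 0.0037 (median-ratio scaling) and 0.13 (term) for Dcn, and 0.27 (term) for Ogn. Adding IL-17A to IL-33 + IL-13 gave -0.012 (median-ratio scaling) and -0.00099 (voom) for Fmod. The term gave an interaction of -0.055 for Dcn and -0.20 for Ogn. With each library left out, Lum ranged from -0.11 to 0.18 (IL-17A added to IL-33), Bgn from -0.035 to 0.011 and Fmod from -0.096 to 0.12 (IL-17A added to IL-33 + IL-13), and Prelp from -0.051 to 0.13 (IL-33 + IL-13 against IL-33 + IL-17A). Depth limits Omd (1 to 22 reads) and Lum (32.0 to 104 reads). No paired analysis was possible because the labels give no replicate numbers.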
